A study of Arabidopsis thaliana with 16 samples.

Results

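The major light-harvesting antenna of photosystem II is encoded in Arabidopsis thaliana by the LHCB1, LHCB2 and LHCB3 genes. All 9 loci carrying these names were taken by locus identifier from the deposited table of 32833 loci: 5 LHCB1 genes, 3 LHCB2 genes and 1 LHCB3 gene. The rule itself uses names and no measured value. The 16 libraries of stranded mRNA sequencing form 8 groups of 2 biological replicates each. Petals were taken at ZT16 and at ZT4 from 35S:CO, co-10 and Col-0 plants, and whole 10-day-old seedlings were taken at ZT16 from 35S:CO and Col-0 plants. The line 35S:CO overexpresses CONSTANS (CO), a transcription factor of photoperiodic flowering, from the viral 35S promoter, which is active in most tissues. The mutant co-10 is a CO null, and Col-0 is the wild type. All plants grew in 16 h of light at 22 °C and 8 h of dark at 18 °C. ZT counts the hours from lights on, so ZT16 samples came from the end of the light period and ZT4 samples from the morning. The sources used here do not give the number of plants behind a library or the age of the petals.

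The proteins LHCB1, LHCB2 and LHCB3 bind chlorophyll a, chlorophyll b and carotenoids and assemble into trimers, known as LHCII, that pass absorbed light energy to photosystem II. LHCB1 and LHCB2 can be phosphorylated, which shifts part of the antenna between the photosystems, whereas LHCB3 lacks the phosphorylated threonine and occurs in trimers with LHCB1 or LHCB2. The genes are transcribed in green tissue under the control of light and the circadian clock, with morning-expressed factors such as CCA1 among their regulators. Arabidopsis petals are white when open, and young petals hold chlorophyll that is lost as they mature.

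The values are FPKM, a fragment count scaled by transcript length and library size, as the authors deposited them. Seedling libraries had an estimated 56020000 to 63350000 reads and petal libraries 5220000 to 22040000, read from the smallest steps between low values, and these estimates give no counting interval for a single value. CO itself stood at 297 to 315 FPKM in 35S:CO seedlings, against 1.91 and 2.1 FPKM in Col-0 seedlings, and at 414 to 625 FPKM in 35S:CO petals, against 0.0256 to 0.260 FPKM in co-10 petals and 0.0376 to 0.703 FPKM in Col-0 petals. CO transcript was thus near 0 in both co-10 and Col-0 petals and did not separate them. The 3 petal identity genes AP3, PI and AP1 summed to 783 to 1887 FPKM in petal libraries and to 3.48 FPKM or less in seedling libraries. Of 6 anther and pollen markers, 3 were at 1 FPKM or more in every petal group, VGD1, TUA1 and ACT12. The sums were 513 to 3198 FPKM in petals. VGD1 made up most of them, with group means of 603 to 2191 FPKM in petals and 0 FPKM in seedlings. SPL, AMS and A9 were at 0 in every petal library. The share of ribosomal RNA loci in a petal library's total FPKM was 3.82% to 48.8%. In whole petals and seedlings, fewer cells of a type and less RNA per cell cannot be told apart.

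The 9 loci lie on 4 chromosomes (TAIR10.1, RefSeq annotation). LHCB1.1 (AT1G29920, CAB2, chr1:10474656-10475969, minus strand), LHCB1.2 (AT1G29910, CAB3, chr1:10472280-10473502, minus strand) and LHCB1.3 (AT1G29930, CAB1, chr1:10477885-10479114, plus strand) stand next to each other. LHCB1.5 (AT2G34420, chr2:14522524-14523568, minus strand) and LHCB1.4 (AT2G34430, chr2:14524607-14525918, plus strand) form a divergent pair. LHCB2.1 (AT2G05100, chr2:1822990-1824480, minus strand) and LHCB2.2 (AT2G05070, chr2:1799234-1800472, minus strand) are also close neighbours. LHCB2.3 (AT3G27690, chr3:10255906-10257489, plus strand) and LHCB3 (AT5G54270, chr5:22038165-22039568, plus strand) stand apart from the other members. The 5 LHCB1 genes have a single exon, and LHCB2 and LHCB3 genes have 2 or 3.

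Several members are near copies of each other, so reads from one can be assigned to another. Over aligned coding bases LHCB1.1, LHCB1.2 and LHCB1.3 were 95.6% to 96.4% identical, LHCB1.4 and LHCB1.5 were 92.5% identical, and LHCB2.1 and LHCB2.2 were 91.1% identical. LHCB2.3 was 82.2% identical to LHCB2.1 and 84.7% to LHCB2.2, and LHCB3 was 62.7% to 66.0% identical to the other members. Of all stretches of 75 bases in the transcripts, 19.1% of those in LHCB2.2 and 15.3% of those in LHCB2.1 occurred unchanged in the other gene of that pair. Read in the direction of each transcript, the share that occurred in any other locus was 3.66% to 10.4% for the LHCB1 genes. It was 0% for LHCB2.3 and for LHCB3. Values of LHCB1.1 to LHCB1.5, LHCB2.1 and LHCB2.2 are therefore uncertain as levels of single loci. Those of LHCB2.3 and LHCB3 rest on sequence found in no other annotated transcript in that direction at that length. Loci on the opposite strand, which these shares leave out, overlap 595 bases of LHCB2.3, 186 bases of LHCB3 and 100% of LHCB1.5. The sources used here do not say whether the counting used the strand. The length of 75 bases was chosen here, since the sources used here give no read length. The same coding stretch of the LHCB2 genes (bases 254 to 328 of the coding sequence of LHCB2.1 and LHCB2.2, bases 353 to 427 in LHCB2.3) shows why LHCB2.3 can be told apart from the other two, with capitals marking the 13 bases that differ from LHCB2.1:
LHCB2.1: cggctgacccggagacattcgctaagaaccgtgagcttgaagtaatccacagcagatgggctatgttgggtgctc
LHCB2.2: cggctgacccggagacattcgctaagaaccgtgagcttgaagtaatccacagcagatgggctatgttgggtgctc
LHCB2.3: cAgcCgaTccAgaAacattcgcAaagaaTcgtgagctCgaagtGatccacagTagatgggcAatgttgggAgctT

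The matching display for LHCB1 (bases 428 to 502 of the coding sequence of LHCB1.1, LHCB1.2 and LHCB1.3, 425 to 499 in LHCB1.4 and 422 to 496 in LHCB1.5) shows a stretch in which LHCB1.1 cannot be told from LHCB1.3, nor LHCB1.4 from LHCB1.5. Capitals mark the bases that differ from LHCB1.1, 4 in LHCB1.2 and 13 in LHCB1.4 and in LHCB1.5:
LHCB1.1: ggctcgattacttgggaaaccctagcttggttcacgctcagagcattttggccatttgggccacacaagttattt
LHCB1.2: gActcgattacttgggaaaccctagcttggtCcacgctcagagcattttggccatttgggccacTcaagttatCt
LHCB1.3: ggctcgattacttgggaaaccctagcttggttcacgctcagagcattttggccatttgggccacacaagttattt
LHCB1.4: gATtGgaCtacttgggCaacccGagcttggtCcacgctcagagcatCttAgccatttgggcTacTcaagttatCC
LHCB1.5: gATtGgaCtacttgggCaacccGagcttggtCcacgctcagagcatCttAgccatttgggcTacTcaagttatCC

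**Figure D1:**
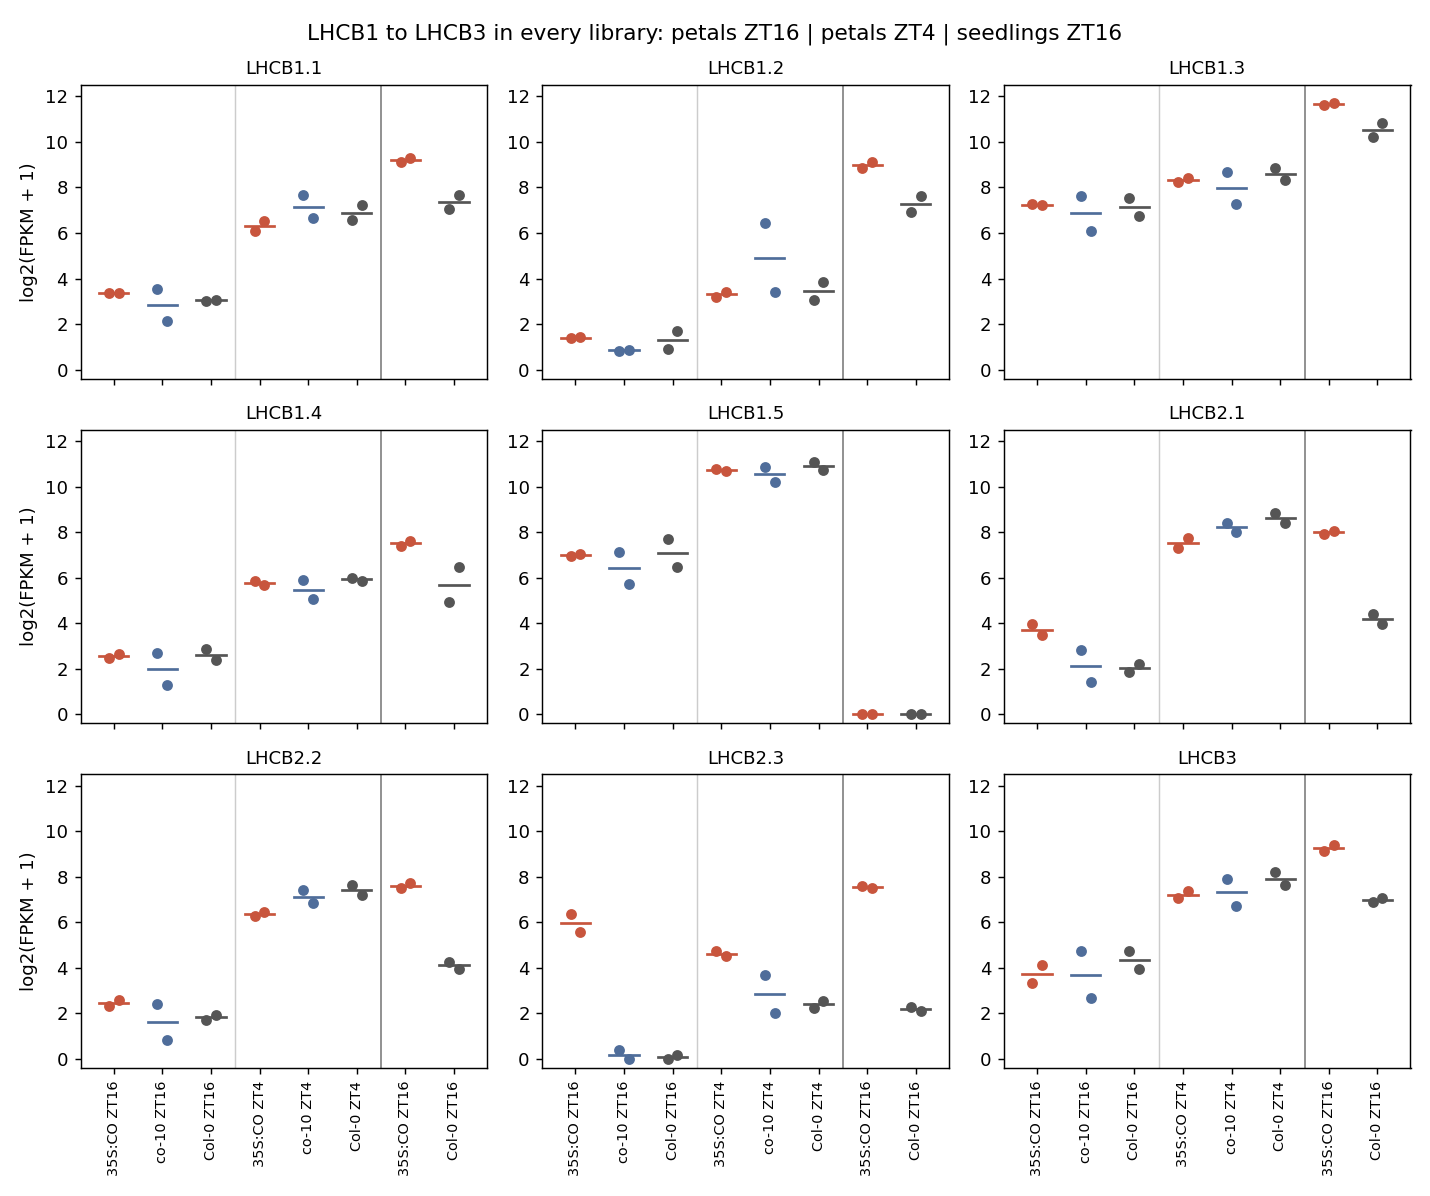
Level of each of the 9 loci as log2(FPKM + 1) in every library (dots; bars are means of 2 libraries), with petals at ZT16, petals at ZT4 and seedlings at ZT16 from left to right in each panel. LHCB2.3 stands at 81.6 and 46.1 FPKM in 35S:CO petals at ZT16, against 0.305 FPKM or less in co-10 and Col-0 petals of that time, and LHCB1.5 is listed at 0 in all 4 seedling libraries.

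Comparisons were tested by limma, a linear model fitted across genes, on log2(FPKM + 1). A locus entered a fit if 2 or more of its libraries reached 1 FPKM. It passed if its p, adjusted over all tested loci by the Benjamini-Hochberg method and two-sided, was under 0.05, and differences are log2 units of FPKM + 1, ± SE. In seedlings at ZT16, 7 of the 8 LHCB loci that could be tested were higher in 35S:CO than in Col-0, where 5.5% of all 19214 tested loci were called higher. The median difference of the 8 was 2.07, against -0.09 over all loci. The 3 LHCB2 genes had the largest differences, followed by LHCB3 and then LHCB1.

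LHCB2.3 had 193 and 181 FPKM in 35S:CO seedlings, against 3.93 and 3.33 FPKM in Col-0 seedlings. The ratio of the means was 51.5, and the difference was 5.35 ± 0.10 (adjusted p = 2.48e-04). LHCB2.1 had 244 and 268 FPKM in 35S:CO seedlings and 20.1 and 14.6 FPKM in Col-0 seedlings, a difference of 3.82 ± 0.16 (adjusted p = 0.00104). These LHCB2 genes encode a protein of the LHCII trimer that is phosphorylated in state transitions. LHCB2.2 had 180 and 210 FPKM in 35S:CO seedlings, against 18.3 and 14.4 FPKM in Col-0 seedlings, a difference of 3.50 ± 0.14 (adjusted p = 0.001). In these 3 genes the lowest 35S:CO library lay far above the highest Col-0 library. LHCB3, whose protein occurs only in mixed trimers, had 569 and 679 FPKM in 35S:CO seedlings and 117 and 134 FPKM in Col-0 seedlings, a difference of 2.3 ± 0.12 (adjusted p = 0.00185). The opposite-strand neighbour ATM2 (AT5G54280), which overlaps the last 186 bases of LHCB3, was also higher, by 1.23 ± 0.09 (adjusted p = 0.00361).

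Among the LHCB1 genes, which encode the most abundant trimer subunit, LHCB1.3 was the highest in seedlings, at 3112 and 3299 FPKM in 35S:CO and 1185 and 1805 FPKM in Col-0. Its difference of 1.13 ± 0.21 was the smallest of those called (adjusted p = 0.0362), and it did not pass without the filter (adjusted p = 0.0609) or after quantile normalization (adjusted p = 0.0589). LHCB1.1 had 559 and 625 FPKM in 35S:CO, against 131 and 205 FPKM in Col-0, a difference of 1.85 ± 0.23 (adjusted p = 0.0158). The 35S:CO and Col-0 libraries did not overlap for either gene, although the Col-0 replicates differed more than those of 35S:CO. LHCB1.2 had 457 and 553 FPKM in 35S:CO and 119 and 196 FPKM in Col-0, a difference of 1.71 ± 0.26 (adjusted p = 0.0257). LHCB1.4 had 167 and 197 FPKM in 35S:CO and 29.1 and 87.8 FPKM in Col-0, and its difference of 1.82 ± 0.60 did not pass (adjusted p = 0.155). LHCB1.5 was listed at 0 in all 4 seedling libraries and was not tested. Without 35S:CO replicate 1, or without replicate 2, LHCB1.1, LHCB1.2 and LHCB1.3 no longer passed (adjusted p = 0.129 to 0.221), which left 4 calls, the LHCB2 genes and LHCB3. Without either Col-0 replicate LHCB1.4 passed as well, with 1.04 ± 0.14 (adjusted p = 0.00733) without replicate 1 and 2.60 ± 0.13 (adjusted p = 3.27e-04) without replicate 2, for 8 calls each.

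Genes that work with the antenna were followed through 41 loci in 6 lists. In 35S:CO seedlings 14 of the 40 tested were higher and 2 lower, and their median difference was 0.106. Of all loci, 5.5% were called higher and 6.22% lower, so the pathway loci that were lower were no more frequent than loci at large. The minor antenna of photosystem II had 3 of 6 higher, led by LHCB4.2 at 2.03 and LHCB6 at 1.77, with LHCB5 at 0.54. The photosystem I antenna had 4 of 6 higher, with LHCA4 at 1.98, LHCA3 at 1.24, LHCA1 at 0.60 and LHCA2 at 0.56. Of 13 tested chlorophyll synthesis genes 4 were higher and 1 lower. The higher ones were CAO, which makes chlorophyll b, at 1.82, HEMA1, the first committed enzyme, at 1.49, CRD1, a cyclase subunit, at 1.46 and CHLH, a magnesium chelatase subunit, at 1.22, and the lower one was CHLG, chlorophyll synthase, at -0.41. None of the 5 genes of import and insertion into the membrane passed by limma, with 1 at an unadjusted p under 0.05, and none of the 3 LHCII kinase and phosphatase genes, with 0 at that level.

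Of the 7 regulators of LHCB transcription, 3 were higher and 1 lower in 35S:CO seedlings, where 5.5% of all loci were called higher and 6.22% lower. The morning clock gene LHY had 11.1 and 10.1 FPKM in 35S:CO, against 0.717 and 0.980 FPKM in Col-0 (2.65 ± 0.12, adjusted p = 0.00128). Its partner CCA1 had 5.84 and 5.54 FPKM in 35S:CO, against 0.703 and 0.384 FPKM in Col-0 (2.12 ± 0.14, adjusted p = 0.00306). GLK2, a factor that activates antenna and chlorophyll synthesis genes, was higher by 1.01 ± 0.08 (adjusted p = 0.00472), and its relative GLK1 differed by 0.71 ± 0.16 without passing (adjusted p = 0.0509). HY5, a factor of light signalling, was lower by 0.81 (-0.81 ± 0.12, adjusted p = 0.0187). Of 16 markers of green tissue outside the antenna 3 were higher and 2 lower, with a median difference of 0.0188, and their sum was 38170 to 38680 FPKM in 35S:CO and 36640 to 39500 FPKM in Col-0. Floral markers were low in seedlings but differed: the petal identity genes summed to 3.43 to 3.48 FPKM in 35S:CO and 0.244 to 0.517 FPKM in Col-0, with both of the 2 tested higher. The anther and pollen markers summed to 30.1 to 35.2 FPKM in 35S:CO and 13.6 to 13.7 FPKM in Col-0. That sum was almost all TUA1, the 1 tested, which was higher. In seedlings of both genotypes VGD1, SPL and A9 averaged 0 FPKM, ACT12 at most 0.0112 FPKM and AMS at most 0.0823 FPKM. The part of these tissues in the seedling LHCB differences was not tested.

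In petals at ZT16, 1 of the 9 loci was higher in 35S:CO than in Col-0, LHCB2.3, where 0.856% of 17876 tested loci were called higher. LHCB2.3 had 81.6 and 46.1 FPKM in 35S:CO petals, against 0.305 and 0 FPKM in co-10 petals and 0 and 0.144 FPKM in Col-0 petals. The 35S:CO libraries stood far above all 4 libraries of the other genotypes, in which the transcript was at or next to 0. The difference was 5.87 ± 0.51 from Col-0 (adjusted p = 2.68e-04) and 5.77 ± 0.51 from co-10 (adjusted p = 3.34e-04), where LHCB2.3 was likewise the 1 member to pass and 0.682% of all loci were called higher. Since 2 of those 4 libraries are listed at 0, the size of the difference depends on the 1 FPKM added, and with 0.1 FPKM added it was 8.62 from Col-0. The call against Col-0 was kept without each of the 4 libraries in turn and under the 7 other settings tried. Among these settings, summing near-identical copies and summing LHCB1.5 with its opposite-strand locus left the values of LHCB2.3 unchanged. Those sums are therefore no check of this call. The opposite-strand neighbour AT3G27700, which overlaps 595 bases of LHCB2.3, stayed at 6.87 to 12.1 FPKM in the petal libraries of ZT16 and differed by -0.01 ± 0.46 between 35S:CO and Col-0.

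LHCB2.1 had 14.6 and 10.1 FPKM in 35S:CO petals at ZT16, against 6.07 and 1.67 FPKM in co-10 and 2.64 and 3.57 FPKM in Col-0. The 35S:CO libraries were the highest, but the differences of 1.60 ± 0.43 from co-10 (adjusted p = 0.135) and 1.70 ± 0.43 from Col-0 (adjusted p = 0.118) did not pass. They passed after quantile normalization, at 1.67 and 1.69 (adjusted p = 0.0463 and 0.0402). LHCB2.2 had 4.09 and 4.99 FPKM in 35S:CO, 4.41 and 0.768 FPKM in co-10 and 2.29 and 2.81 FPKM in Col-0, with a difference of 0.64 ± 0.45 from Col-0 (adjusted p = 0.782). Without co-10 replicate 1, LHCB2.1 and LHCB2.2 passed against co-10 too, at 2.3 ± 0.38 (adjusted p = 0.0155) and 1.64 ± 0.35 (adjusted p = 0.0457), which gave 3 calls. That co-10 library was higher than the other in 8 of the 9 loci.

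The LHCB1 genes and LHCB3 did not pass in 35S:CO petals at ZT16, and their differences from Col-0 ran from -0.62 to 0.32, with SE of 0.44 to 0.76. LHCB1.3, at 154 and 148 FPKM in 35S:CO, 198 and 67.6 FPKM in co-10 and 187 and 106 FPKM in Col-0, was the highest or second highest member in every petal library of ZT16. LHCB1.5 had 124 and 132 FPKM in 35S:CO, 139 and 51.5 FPKM in co-10 and 209 and 87.2 FPKM in Col-0. LHCB3 had 8.99 and 16.7 FPKM in 35S:CO, 25.7 and 5.42 FPKM in co-10 and 25.8 and 14.6 FPKM in Col-0. In these 3 genes the libraries of the 3 genotypes overlapped. LHCB1.1, LHCB1.2 and LHCB1.4 stood at 10.7 FPKM or less in every petal library of ZT16.

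Of the 39 tested pathway loci, 1 passed in 35S:CO petals at ZT16, LHY, with 14.4 and 26.9 FPKM in 35S:CO, 2.87 and 2.21 FPKM in co-10 and 1.12 and 3.39 FPKM in Col-0. It was higher by 2.56 ± 0.49 than in co-10 (adjusted p = 0.0354) and by 2.76 ± 0.49 than in Col-0 (adjusted p = 0.0215). CCA1 differed from Col-0 by 0.51 (adjusted p = 0.791), GLK1 by 1.73 (adjusted p = 0.408) and GLK2 by 0.96 (adjusted p = 0.625). The 16 green tissue markers outside the antenna summed to 6539 to 7567 FPKM in 35S:CO petals, 1616 to 3558 FPKM in co-10 and 2175 to 3223 FPKM in Col-0. Of these markers 2 were higher than in Col-0, with a median difference of 0.605. Much of the higher sum lay in RBCS3B (means of 2084 FPKM in 35S:CO and 250 FPKM in Col-0) and RCA (1477 and 228 FPKM). PSAG (106 and 113 FPKM), PSBO2 (26.4 and 29.2 FPKM) and HCEF1 (26.5 and 29.8 FPKM) had lower means in 35S:CO than in Col-0. The 6 anther and pollen markers summed to 712 to 967 FPKM in 35S:CO, 1834 to 3198 FPKM in co-10 and 1332 to 2167 FPKM in Col-0. The part of these tissues in the LHCB differences was not tested.

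In petals at ZT4 none of the 9 loci passed between 35S:CO and Col-0 by limma, with 3 at an unadjusted p under 0.05, and 0.106% of all loci were called in either direction. LHCB2.3 had 25.8 and 22.0 FPKM in 35S:CO petals, 11.9 and 3.12 FPKM in co-10 petals and 3.80 and 4.86 FPKM in Col-0 petals. Its 35S:CO libraries were again the highest. Against co-10 none of the 9 loci passed by limma either, with 1 at an unadjusted p under 0.05 and 0.319% of all loci called. LHCB2.3 had differences of 1.77 ± 0.51 from co-10 (adjusted p = 0.225) and 2.23 ± 0.51 from Col-0 (adjusted p = 0.214). Against co-10 it passed without co-10 replicate 1, at 2.59 ± 0.45 (adjusted p = 0.0106). The other LHCB2 genes stood the other way round. LHCB2.1 had 155 and 211 FPKM in 35S:CO, 340 and 257 FPKM in co-10 and 456 and 339 FPKM in Col-0, a difference of -1.11 ± 0.43 from Col-0 (unadjusted p = 0.0247 by limma, adjusted p = 0.664). LHCB2.2 had 77.5 and 86.8 FPKM in 35S:CO, 169 and 114 FPKM in co-10 and 200 and 146 FPKM in Col-0, a difference of -1.05 ± 0.45 from Col-0 (adjusted p = 0.766). For both genes the 35S:CO libraries lay below those of the other genotypes, but neither difference passed the threshold.

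The remaining members differed between 35S:CO and Col-0 petals at ZT4 by -0.70 to -0.13. LHCB1.5 was the most abundant antenna transcript, at 1747 and 1621 FPKM in 35S:CO, 1846 and 1190 FPKM in co-10 and 2149 and 1682 FPKM in Col-0. LHCB1.3 had 304 and 341 FPKM in 35S:CO, 409 and 152 FPKM in co-10 and 457 and 323 FPKM in Col-0. LHCB3 had 134 and 163 FPKM in 35S:CO, 241 and 104 FPKM in co-10 and 292 and 199 FPKM in Col-0. The genotypes overlapped for LHCB1.5 and LHCB1.3, while both 35S:CO libraries of LHCB3 lay below those of Col-0 and within those of co-10. LHCB1.2 differed within a genotype: it had 84.5 FPKM in co-10 replicate 1 and 9.66 FPKM in replicate 2, against 7.22 to 13.5 FPKM in the 35S:CO and Col-0 libraries, and without replicate 2 it passed as lower in 35S:CO than in co-10, at -3.10 ± 0.49 (adjusted p = 0.0291). None of the 39 pathway loci passed between 35S:CO and Col-0 at ZT4 by limma, with 4 at an unadjusted p under 0.05.

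Between co-10 and Col-0 petals 0 of the 9 loci passed by limma at ZT16 and 0 at ZT4, with 0 at an unadjusted p under 0.05 at either time. Of all loci, 0.0224% were called at each time. The members' differences ran from -0.67 to 0.09 at ZT16 and from -0.62 to 1.47 at ZT4. The largest of them was that of LHCB1.2 at ZT4 (1.47 ± 0.76, adjusted p = 0.656), which rests on co-10 replicate 1: it was 2.97 without replicate 2 and -0.03 without replicate 1.

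**Figure D2:**
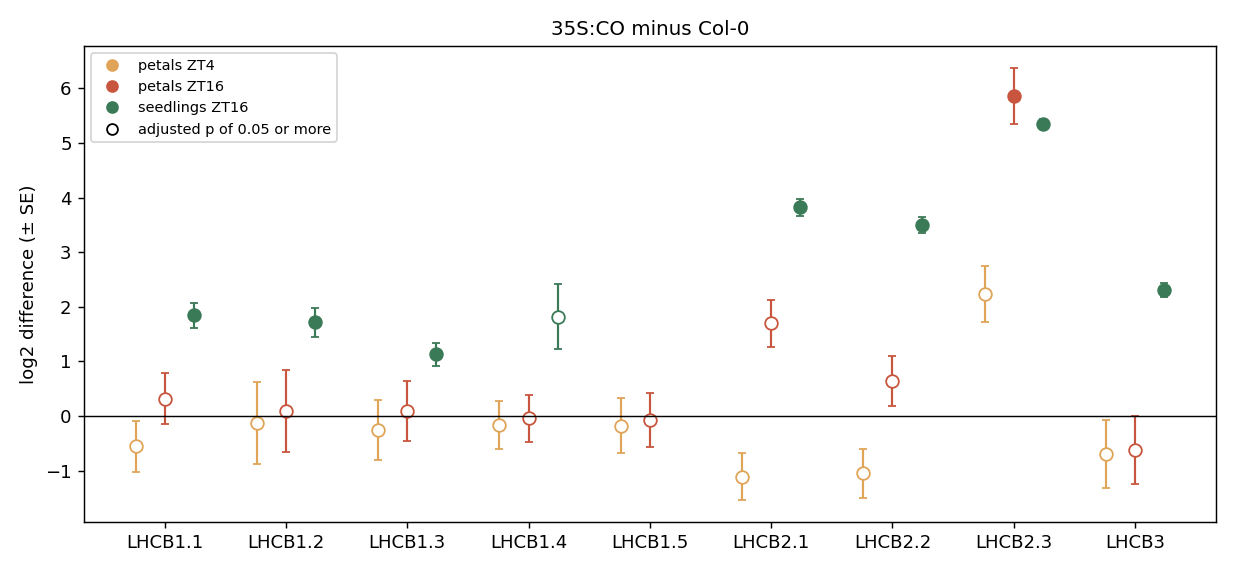
Difference between 35S:CO and Col-0 in log2(FPKM + 1) for each locus (points; bars are ± SE from the fit) in petals at ZT4, petals at ZT16 and seedlings at ZT16; filled points passed at an adjusted p under 0.05. LHCB2.3 passed in petals at ZT16 (5.87) and in seedlings (5.35), while the other 6 loci that passed did so in seedlings; LHCB1.5 was not tested in seedlings.

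Most of the family was lower in petals at ZT16 than at ZT4. At ZT16, 6 of the 9 loci were lower in 35S:CO (1.21% of all loci were called lower), 8 in co-10 (4.79%) and 7 in Col-0 (6.81%), and none was higher. The members' medians were -3.19 in 35S:CO, -4.07 in co-10 and -3.57 in Col-0, against 0.0893, 0.214 and 0.0027 over all loci. In co-10 and Col-0 the LHCB2 genes with near-identical copies moved most. LHCB2.1 averaged 3.10 ± 0.65 FPKM at ZT16 and 397 ± 82.7 FPKM at ZT4 in Col-0 (SD, n = 2 each), a difference of -6.59 ± 0.43 (adjusted p = 2.04e-05). LHCB2.2 averaged 2.55 ± 0.37 FPKM at ZT16 and 173 ± 38.0 FPKM at ZT4 in Col-0, a difference of -5.60 ± 0.45 (adjusted p = 6.5e-05). In co-10 the differences were -6.09 and -5.50 for this pair, and in 35S:CO they were -3.79 (adjusted p = 0.0022) and -3.91 (adjusted p = 0.00239). LHCB2.3 was lower at ZT16 in co-10 (-2.67 ± 0.51, adjusted p = 0.00696) and Col-0 (-2.31 ± 0.51, adjusted p = 0.0122), whereas in 35S:CO it averaged 63.9 ± 25.1 FPKM at ZT16 and 23.9 ± 2.74 FPKM at ZT4, a difference of 1.33 ± 0.51 that did not pass (adjusted p = 0.188). At ZT16 LHCB2.3 was at 0.305 FPKM or less in co-10 and Col-0, so the sizes of those differences depend on the 1 FPKM added. Under the other settings tried they reached -4.95 in co-10 and -4.815 in Col-0. The Col-0 call of LHCB2.3 was lost without any 1 of the 4 libraries (adjusted p = 0.0519 to 0.0723), and the co-10 call without co-10 ZT16 replicate 2 (adjusted p = 0.0547).

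LHCB1.5 averaged 128 ± 5.61 FPKM at ZT16 and 1684 ± 89.2 FPKM at ZT4 in 35S:CO, and the differences were -3.70 in 35S:CO, -4.11 in co-10 and -3.80 in Col-0. LHCB1.4 differed by -3.19, -3.48 and -3.31 in the same order of genotypes, and LHCB3 by -3.48, -3.61 and -3.57, and for each of these 3 loci the genotypes differed by less than the SE of a difference. LHCB1.1 was lower in all 3 genotypes, with -2.97 in 35S:CO, -4.31 in co-10 and -3.84 in Col-0. LHCB1.2 was lower in co-10 (-4.07, adjusted p = 0.00583) and did not pass in 35S:CO (-1.91, adjusted p = 0.199) or Col-0 (-2.13, adjusted p = 0.0841). The co-10 libraries of ZT4 stood at 84.5 and 9.66 FPKM for LHCB1.2, and with 1 library left out its co-10 difference ran from -5.57 to -2.57. LHCB1.3 passed in none of the 3 genotypes, with -1.09 in 35S:CO (adjusted p = 0.322), -1.10 in co-10 (adjusted p = 0.213) and -1.45 in Col-0 (adjusted p = 0.103). The FPKM of LHCB1.3 was 14.2 to 26.4 times that of its near copy LHCB1.1 in petal libraries at ZT16 and 1.54 to 4.92 times at ZT4. With the near copies LHCB1.1, LHCB1.2 and LHCB1.3 summed, the difference was -1.34 in 35S:CO (adjusted p = 0.204), -1.79 in co-10 (adjusted p = 0.0507) and -1.79 in Col-0 (adjusted p = 0.0461). In 35S:CO, LHCB2.1 and LHCB2.2 alone passed without ZT4 replicate 1 and without ZT16 replicate 1, and 4 loci passed without ZT4 replicate 2 and without ZT16 replicate 2. In co-10, LHCB1.3 passed without ZT16 replicate 1 (-1.87, adjusted p = 0.0468).

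**Figure D3:**
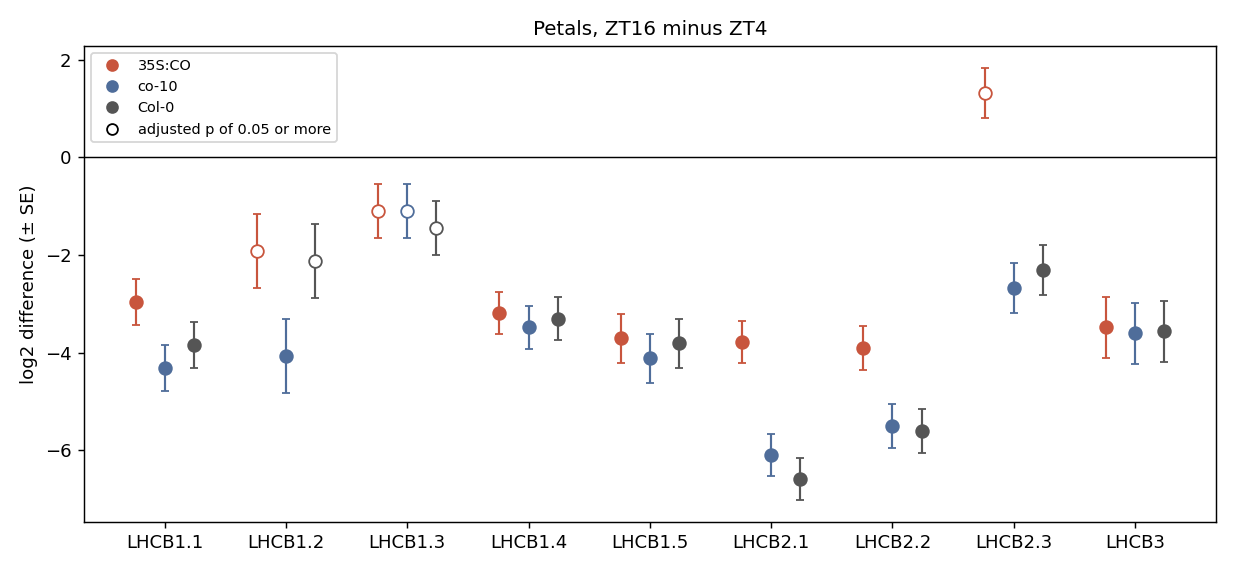
Difference between ZT16 and ZT4 in petals, in log2(FPKM + 1), for each locus (points; bars are ± SE from the fit) in 35S:CO, co-10 and Col-0; filled points passed at an adjusted p under 0.05. All differences are negative except that of LHCB2.3 in 35S:CO, at 1.33, and LHCB2.1 differs by -3.79 in 35S:CO, -6.09 in co-10 and -6.59 in Col-0.

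Whether the change with time depended on genotype was tested by the interaction, the difference with time in 35S:CO or co-10 minus that in Col-0. For 35S:CO none of the 9 loci passed by limma, with 3 at an unadjusted p under 0.05, and 0.0224% of all loci were called. The largest terms were those of LHCB2.3, at 3.64 ± 0.73 (adjusted p = 0.175), LHCB2.1, at 2.81 ± 0.605 (adjusted p = 0.2), and LHCB2.2, at 1.69 ± 0.64 (adjusted p = 0.607), and those of LHCB1 and LHCB3 were 0.08 to 0.87. The size of the LHCB2.3 term also depends on the 1 FPKM added, and it ran from 3.46 to 6.18 under the other settings tried. For co-10 none passed either, with 0 at an unadjusted p under 0.05, where 0.0224% of all loci were called, and the term of largest size was that of LHCB1.2 (-1.94 ± 1.07, adjusted p = 1.0). With 1 library left out that term ran from -3.44 to -0.44.

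The pathway lists moved with time in the same petal libraries. At ZT16, 1 of 39 pathway loci was higher and 3 were lower in 35S:CO, while 3 were higher and 14 lower in co-10 and also in Col-0. Of all loci, 3.02% in 35S:CO, 8.51% in co-10 and 8.56% in Col-0 were called higher, so the pathway loci that were higher were no more frequent than loci at large. In all 3 genotypes LHCB4.3, a minor antenna gene, was higher (2.33 in 35S:CO, 2.39 in co-10 and 2.37 in Col-0), and LHCA1, LHCA4 and CCA1 were lower. LHCA4 differed by -3.03 in 35S:CO, -3.35 in co-10 and -3.70 in Col-0, and CCA1 by -3.31, -4.56 and -3.65 in that order. LHY passed in co-10 (-2.32, adjusted p = 0.0103) and in Col-0 (-2.74, adjusted p = 0.00382) but not in 35S:CO (-0.87, adjusted p = 0.377), with an interaction of 1.87 ± 0.69 for 35S:CO that did not pass (adjusted p = 0.59). GLK2 was lower in Col-0 (-2.07, adjusted p = 0.0213), while GLK1 differed by 0.44, -0.06 and -1.55 in 35S:CO, co-10 and Col-0 and passed in none. LHCB5, LHCB6, LHCA3, CHLI1, CRD1, CAO, LTD and STN7 were lower, and TAP38 higher, in both co-10 and Col-0. LHCB4.1 (-1.36) was lower and HY5 (1.69) higher in Col-0, and GUN4 (-2.35) and CHLH (-2.20) were lower and PORB (2.62) higher in co-10. Of the 16 green tissue markers outside the antenna, 0 passed in 35S:CO by limma, with 7 at an unadjusted p under 0.05, while 8 were lower in co-10 and 7 were lower in Col-0. The petal identity genes summed to 783 to 1010 FPKM at ZT16 and 1315 to 1887 FPKM at ZT4 in Col-0, and to 803 to 1001 FPKM at ZT16 and 1346 to 1623 FPKM at ZT4 in co-10. The anther and pollen markers summed to 1332 to 2167 FPKM at ZT16 and 513 to 1114 FPKM at ZT4 in Col-0, and to 1834 to 3198 FPKM at ZT16 and 1457 to 1661 FPKM at ZT4 in co-10. None of these floral markers passed by limma, but in Col-0 2 of the 3 tested petal identity genes and all 3 tested anther and pollen markers had an unadjusted p under 0.05, and in co-10 1 of 3 in each list. In 35S:CO the petal identity genes summed to 1117 to 1465 FPKM at ZT16 and 1339 to 1661 FPKM at ZT4, and the anther and pollen markers to 712 to 967 FPKM at ZT16 and 654 to 829 FPKM at ZT4, with none under that level. The share of ribosomal RNA loci was 12.0% to 35.2% at ZT16 and 26.7% to 48.8% at ZT4 in 35S:CO, 3.82% to 11.1% at ZT16 and 19.1% to 20.9% at ZT4 in co-10, and 8.37% to 38.8% at ZT16 and 21.6% to 35.0% at ZT4 in Col-0. The part of any of these in the LHCB differences was not tested.

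Petals were set against seedlings at ZT16 within a genotype. The median difference of all loci was -0.65 in 35S:CO and -0.74 in Col-0, and 43.1% of loci in 35S:CO and 45.5% in Col-0 were called lower. Of the 9 LHCB loci, 8 were lower in petals in each genotype. With LHCB1.4 and LHCB1.5 summed as near-identical copies, the sum differed by -0.44 in 35S:CO (adjusted p = 0.521) and by 1.45 in Col-0 (adjusted p = 0.0429). LHCB1.4 alone differed by -4.94 in 35S:CO and -3.08 in Col-0. LHCB1.5 was 20.8 to 33.5 times LHCB1.4 in 35S:CO and Col-0 petal libraries of ZT16, and 0 in seedlings. The sum was therefore set mostly by LHCB1.5 and its seedling zeros, and it gives no direction for LHCB1.4. In 35S:CO the 8 differed by -7.57 (LHCB1.2) to -1.59 (LHCB2.3), and in Col-0 by -5.94 (LHCB1.2) to -2.11 (LHCB2.3). The Col-0 petal libraries of LHCB2.3 were at 0 and 0.144 FPKM, so the size of its Col-0 difference depends on the 1 FPKM added. Under the other settings tried that difference ran from -4.57 to -1.11. Quantile normalization moved the median of all loci to -0.09 in 35S:CO and -0.13 in Col-0 and left the number of called members at 9 in both. The LHCB2.3 difference in 35S:CO did not pass without petal replicate 2 (-1.19, adjusted p = 0.0907), without seedling replicate 1 (-1.55, adjusted p = 0.051) or with 0.1 FPKM added (-1.61, adjusted p = 0.0885). The remaining locus, LHCB1.5, is listed at 0 in all 4 seedling libraries and entered the fit through petals alone, so its place among the 18.2% of loci in 35S:CO and 18.9% in Col-0 called higher in petals was fixed by those zeros and gives no direction. Summed with AT2G08665, the locus on its opposite strand, LHCB1.5 differed by -3.51 in 35S:CO (adjusted p = 9.76e-05) and by -1.05 in Col-0 (adjusted p = 0.0826). All 16 green tissue markers outside the antenna were lower in petals in both genotypes, with medians of -3.43 in 35S:CO and -3.94 in Col-0.

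The effect of 35S:CO in petals minus its effect in seedlings, at ZT16, passed for 1 of the 9 loci, where 0.783% of all loci were called lower. That locus was LHCB2.2, at -2.86 ± 0.60 (adjusted p = 0.0416), and the call was lost without each of the 8 libraries in turn (adjusted p = 0.106 to 0.17). LHCB2.1 had -2.13 ± 0.57 (adjusted p = 0.121) and LHCB3 had -2.92 ± 0.85 (adjusted p = 0.163). LHCB2.3 had 0.52 ± 0.64 (adjusted p = 0.983). Its Col-0 petal libraries were at 0 and 0.144 FPKM, so the size of this term depends on the 1 FPKM added. Under the other settings tried it ran from -0.49 to 2.97. For LHCB2.3 the groups ranked 35S:CO seedlings, 35S:CO petals at ZT16 and 35S:CO petals at ZT4, with no overlap between neighbours, then co-10 petals and Col-0 petals at ZT4 and Col-0 seedlings, and last co-10 and Col-0 petals at ZT16. LHCB1.1, LHCB1.2, LHCB1.3, LHCB1.4, LHCB2.2 and LHCB3 were also highest on average in 35S:CO seedlings, whereas LHCB1.5 and LHCB2.1 were highest in Col-0 petals at ZT4.

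The zeros of LHCB1.5 in seedlings stand beside values on the other strand. The locus AT2G08665 (chr2:14522522-14523568, plus strand) covers LHCB1.5 whole, over 1045 bases. It had 1343 and 1606 FPKM in 35S:CO seedlings and 214 and 369 FPKM in Col-0 seedlings, and 0 to 4.95 FPKM in the 12 petal libraries. In petals LHCB1.5 had 51.5 to 2149 FPKM, so in no library did both loci exceed 5 FPKM. AT2G08665 was higher in 35S:CO seedlings than in Col-0 seedlings by 2.38 ± 0.28 (adjusted p = 0.0156), a difference of the same sign as those of the other LHCB1 loci. The sources used here do not say whether the authors' counting used the strand, so these values cannot be assigned to a strand. With both loci summed, a setting chosen after the data had been seen, 8 of the 9 LHCB loci were higher in 35S:CO seedlings.

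Other loci with a partner on the opposite strand were looked at in the same way. Of 60 pairs overlapping by at least 90% and holding 1 protein-coding locus, 13 had a summed mean of at least 10 FPKM in both petals and seedlings. In 7 of these 13 the coding locus was the higher of the pair in petals and the opposite-strand locus the higher in seedlings, and the reverse was seen in 1. All 7 coding loci have a single exon. So do UGT75B1, the higher of its pair in both tissues, and AT4G39840, the reverse case, among the 13. LHCB1.5 was the locus among the 7 that was at 0 in all 4 seedling libraries.

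**Figure D4:**
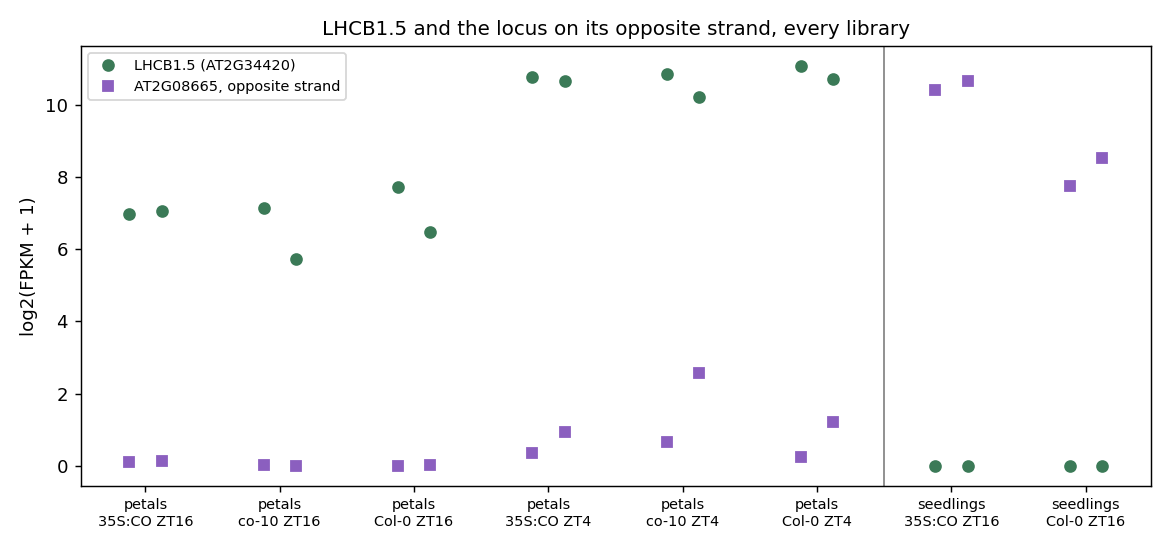
LHCB1.5 (circles) and the locus on its opposite strand, AT2G08665 (squares), as log2(FPKM + 1) in every library, petals left of the line and seedlings right of it. LHCB1.5 holds 51.5 to 2149 FPKM in petals and 0 in seedlings, and AT2G08665 holds 0 to 4.95 FPKM in petals and 214 to 1606 FPKM in seedlings.

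The make-up of the family differed between tissues, times and genotypes. The 9 loci together held 374 to 403 FPKM in 35S:CO, 133 to 390 FPKM in co-10 and 228 to 441 FPKM in Col-0 petals at ZT16. At ZT4 they held 2576 to 2599 FPKM in 35S:CO petals, 1961 to 3361 FPKM in co-10 petals and 2912 to 3719 FPKM in Col-0 petals. Seedlings held 5482 to 6012 FPKM in 35S:CO and 1623 to 2460 FPKM in Col-0, with LHCB1.5 at 0. With AT2G08665 counted as LHCB1.5 they held 6824 to 7618 FPKM in 35S:CO and 1837 to 2829 FPKM in Col-0. In petals at ZT4 LHCB1.5 made up 62.4% to 67.8% of the sum in 35S:CO, 54.9% to 60.7% in co-10 and 57.8% in both libraries of Col-0. In seedlings LHCB1.3 made up 54.9% to 56.8% in 35S:CO and 73.0% to 73.4% in Col-0, or 43.3% to 45.6% and 63.8% to 64.5% with AT2G08665 counted as LHCB1.5. LHCB2.3 made up 12.3% to 20.3% of the sum in 35S:CO petals at ZT16, and at most 0.0782% in co-10 and 0.0632% in Col-0 petals of that time. Within the LHCB2 genes its share in petals at ZT16 was 81.3% and 75.3% in 35S:CO, 2.82% and 0% in co-10 and 0% and 2.21% in Col-0. In seedlings that share was 31.3% and 27.5% in 35S:CO, against 9.29% and 10.3% in Col-0.

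**Figure D5:**
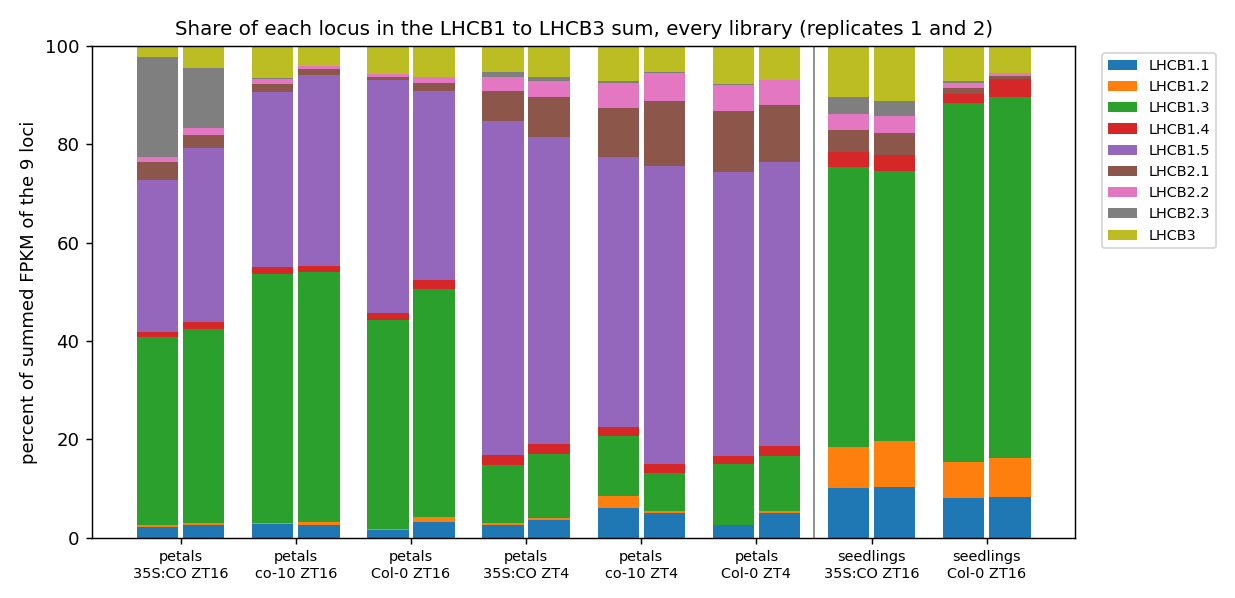
Share of each locus in the summed FPKM of the 9 LHCB loci, in percent, with a bar for each library (replicates 1 and 2 side by side). LHCB1.5 makes up 54.9% to 67.8% in petals at ZT4, LHCB1.3 54.9% to 73.4% in seedlings, and LHCB2.3 12.3% to 20.3% in 35S:CO petals at ZT16. In seedlings LHCB1.5 is listed at 0, and AT2G08665 is not part of the sum.

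The 250 bases before the annotated start of each member were searched on both strands for 6 short motifs known from light, clock and CO regulation. These were the G-box CACGTG (present in 6.49% of 27443 promoters of that length), the I-box GATAAG (12.3%), the CCA1-binding site AAAAATCT (6.69%), the evening element AAAATATCT (2.36%) and the CO-responsive elements CCACA (28.4%) and TGTGNNATG (3.34%). The reverse complement of CCACA shares its first 4 letters with TGTGNNATG. The shares are of promoters with at least 1 match, and no share was taken for several matches of a motif. LHCB2.3 held 3 CCACA and 1 CACGTG, the latter 88 to 83 bases before the start. LHCB2.1 held 2 CCACA and 1 GATAAG, and LHCB2.2 held 1 CCACA. LHCB1.1 held 1 AAAAATCT and 1 CCACA, LHCB1.4 held 1 AAAAATCT, and LHCB1.2, LHCB1.3, LHCB1.5 and LHCB3 held none of the 6. The evening element and TGTGNNATG occurred in no member. These matches describe the letters of the window and not binding. The windows of the LHCB2 genes are shown because these loci differed most between 35S:CO and Col-0 seedlings, 5′ to 3′ on the strand of the gene, with matches in capitals. LHCB2.3 is chr3:10255656-10255905 on the plus strand, LHCB2.1 is chr2:1824481-1824730 and LHCB2.2 is chr2:1800473-1800722, both on the minus strand (TAIR10.1):
LHCB2.3: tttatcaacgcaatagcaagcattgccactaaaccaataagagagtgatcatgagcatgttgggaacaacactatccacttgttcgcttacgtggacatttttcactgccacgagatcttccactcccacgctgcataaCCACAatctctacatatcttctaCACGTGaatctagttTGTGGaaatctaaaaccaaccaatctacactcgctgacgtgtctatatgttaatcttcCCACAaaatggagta
LHCB2.1: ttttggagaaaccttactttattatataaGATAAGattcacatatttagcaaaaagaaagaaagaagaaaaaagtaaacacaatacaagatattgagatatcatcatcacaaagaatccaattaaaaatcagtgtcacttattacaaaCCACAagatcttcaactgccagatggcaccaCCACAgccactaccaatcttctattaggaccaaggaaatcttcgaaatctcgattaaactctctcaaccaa
LHCB2.2: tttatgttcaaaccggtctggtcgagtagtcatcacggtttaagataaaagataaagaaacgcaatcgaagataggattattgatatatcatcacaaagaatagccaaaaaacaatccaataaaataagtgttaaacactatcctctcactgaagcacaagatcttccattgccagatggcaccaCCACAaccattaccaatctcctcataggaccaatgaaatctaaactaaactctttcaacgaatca

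Genes with the most similar pattern were listed by Pearson's r of log2(FPKM + 1) over the 16 libraries, among 16785 loci with a mean of at least 1 log2 unit, as a description in which the points share tissue, time and genotype. For LHCB2.3 they were AT1G24580 (0.98), the nucleoside transporter gene ENT6 (0.96), AT4G34550 (0.958), AO, which encodes L-aspartate oxidase (0.945), and the myo-inositol phosphate synthase gene MIPS2 (0.943). AT1G24580 averaged 32.5 FPKM in 35S:CO, 0.271 FPKM in co-10 and 0.278 FPKM in Col-0 petals at ZT16. For LHCB3 they were the antenna genes LHCA4 (0.982) and LHCB6 (0.956), then CAO (0.946), COL2 (0.946), a relative of CO, and CXIP1 (0.944). For the sum of the 9 loci they were LHCA4 (0.984), CAO (0.959), CP5 (0.956), AT1G19450 (0.955) and COL2 (0.954). Antenna and chlorophyll synthesis genes were thus among the loci nearest to LHCB3 and to the sum, and none was among the 5 nearest to LHCB2.3.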

How the data were processed

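The authors deposited 1 table of FPKM that holds 32833 loci and a column for each of the 16 Arabidopsis libraries; all columns were used. Per the labels' protocols, libraries came from 250 ng of total RNA with a stranded mRNA kit. The submitters' processing notes name HISAT2, FastQC and TAIR10; the quantifier, its settings and its use of strand were not given in the sources used here. Depth was estimated from the steps between low FPKM: within 0.02 of a whole read lay 44.8% to 49.3% of low values in seedlings and 27.9% to 39.5% in petals, against 4% for evenly spread values, and no count test was run.

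Positions and sequences come from the RefSeq annotation of TAIR10.1. Members were matched by locus identifier. Values were taken as log2(FPKM + 1), and loci with 2 or more libraries at 1 FPKM entered the fit. limma 3.58.1 (trend and robust options; statmod 1.5.0, R 4.3.3) gave two-sided p-values, adjusted over all tested loci by the Benjamini-Hochberg method. The seedling fit held 4 libraries and 19214 loci, the petal fit 12 and 17876, and the fit over both tissues 16 and 21200. The 15 comparisons share libraries: each Col-0 group serves several. The fits were also run on simulated data with known changes put in, and no result given here rests on that run. Alternatives were an added value of 0.1 FPKM, no filter, quantile normalization, median-of-ratios scaling, a replicate block, near-identical copies summed, each library left out, and LHCB1.5 summed with its opposite-strand locus. All 9 members are named; other pathway genes are named where called, and CCA1, LHY, GLK1 and GLK2 in any case. ATM2 was named after its values were seen. The members, lists and tests were chosen with earlier results of these data known.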

Additional observations from a re-analysis of the deposited data

Results flagged for a closer look

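In LHCB2.2 the effect of 35S:CO at ZT16 differed between petals and seedlings by -2.86 ± 0.60 in log2(FPKM + 1), by a limma test of the difference itself (adjusted p = 0.0416). The effect was 0.64 in petals and 3.50 in seedlings. The adjusted p was 0.106 to 0.17 without any 1 of the 8 libraries and 0.294 with 0.1 FPKM added. With LHCB2.1 and LHCB2.2 summed the difference was -2.28 (adjusted p = 0.14). The contribution of low values in Col-0 petals, 2.29 and 2.81 FPKM, was not tested.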

How the results depend on the processing

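Quantile normalization raised the number of LHCB loci that passed to 2 for 35S:CO against Col-0 and against co-10 in petals at ZT16, and to 2 for the interaction of 35S:CO with tissue, which fell to 0 with 0.1 FPKM added and with near-identical copies summed. Leaving out 1 library gave 4 to 8 loci in seedlings, 1 to 3 for 35S:CO against co-10 at ZT16 and 0 to 1 at ZT4, 2 to 4 for ZT16 against ZT4 in 35S:CO, and 0 for the interaction with tissue. In seedlings LHCB1.3 did not pass without the filter (adjusted p = 0.0609) or after quantile normalization (adjusted p = 0.0589), and LHCB2.3 in 35S:CO petals against seedlings did not pass with 0.1 FPKM added (adjusted p = 0.0885). In petals against seedlings, LHCB1.5 turned to -3.51 in 35S:CO (adjusted p = 9.76e-05) and -1.05 in Col-0 (adjusted p = 0.0826) when summed with its opposite-strand locus, and to -0.44 in 35S:CO (adjusted p = 0.521) when summed with LHCB1.4, while LHCB1.4 turned to 1.45 in Col-0 (adjusted p = 0.0429) in that sum; the zeros of LHCB1.5 in seedlings enter both. Replicate numbers gave no clear pairing of the samples. Same-numbered deviations correlated at -0.0164 in the 1 seedling pair and at -0.302 to 0.228 over 15 petal pairs, of which 5 were over 0.1. Whether replicates were paired cannot be told from these values. With the replicate block 7 loci passed in seedlings, and 8 in Col-0 petals with time, where LHCB1.3 was added (adjusted p = 0.0416). Petal libraries were shallower than seedling libraries, and the effect of depth on the calls was not tested.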
